A study of Mus musculus with 6 samples.

Results

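Mcl1 and 9 other genes of the Bcl2 family were followed in sorted bone marrow long-lived plasma cells of old and young mice. The 10 members are anti-apoptotic and pro-apoptotic genes picked by symbol, with earlier results of these data known, and all 10 had a single row among the 13642 genes of the deposited table. The study set plasma cells of aged marrow against those of young marrow, in a project on the myeloid shift of ageing marrow. The old group was 3 libraries labelled male C57BL/6J, aged 17 to 19 months, supplied by the colony of the National Institute on Aging. The young group was 3 libraries labelled female C57BL/6J, aged 2 to 3 months, from the Jackson Laboratory or a UCLA animal facility. The labels name no transgene and no treatment. Age, sex and supplier changed together, so their effects cannot be told apart. The sort kept cells with high CD138 that lacked surface B220, IgD, TCRb, TCRgd, Gr-1 and CD11b. The design text speaks of independent groups of mice, without saying whether a library was 1 animal or a pool. The p-values here therefore reflect variation among these libraries, part of which may be technical.

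The Bcl2 family decides whether a cell keeps its mitochondrial outer membrane closed. Anti-apoptotic members (Mcl1, Bcl2, and Bcl2l1, which encodes Bcl-xL) hold the effectors Bax and Bak1 in check, and BH3-only members (Bcl2l11, Bbc3, Bid, Bad and Bmf) bind the anti-apoptotic proteins or activate the effectors. Open pores release cytochrome c and start the caspase cascade. In mice, bone marrow plasma cells need Mcl1 to persist, and signalling through the receptor BCMA is known to sustain it. Mcl1 protein is short-lived and under strong control by degradation, so transcript levels do not give protein levels.

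Plasma cell identity was checked first. All 7 genes of the plasma cell list were above 0 in each library, with a summed level of 8554 to 21690 FPKM in old and 18850 to 22300 FPKM in young libraries. FPKM is a fragment count corrected for gene length and library size. Comparisons of level between genes therefore rest on the gene lengths used, which are not given in the sources used here. A pair of libraries stood apart. Old replicate 3 had the lowest plasma cell sum, and Jchain, the antibody joining chain gene, was at 7514 FPKM there against 16940 FPKM or more in the other libraries. Young replicate 3 had the fewest genes above 0, 8934 against 9974 to 12049 elsewhere. Each young library had fewer than each old one, 10664, 9974 and 8934 in young against 11310, 11880 and 12049 in old libraries. The part of this difference in genes listed at 0 in young libraries was not tested. Genes listed for other cell types were present in both groups. The 6 B cell genes summed to 24.3 to 56.2 FPKM in old and 37.9 to 45.4 FPKM in young libraries, and the 8 neutrophil genes to 258 to 1197 and 354 to 562 FPKM. For the 6 monocyte genes the sums were 188 to 790 and 94.6 to 231 FPKM, for the 5 measured eosinophil and basophil genes 896 to 1611 and 1256 to 1371 FPKM, and for the 5 dividing cell genes 103 to 413 and 132 to 228 FPKM. The 4 erythroid genes summed to 28.4 to 676 and 0.3004 to 239 FPKM, and the 5 T cell genes to 6.20 to 7.74 and 0.0860 to 8.89 FPKM. Cd3e was listed at 0 in all young libraries and in old replicate 1. On the log2(FPKM + 1) scale, old minus young, 6 of 7 plasma cell genes were negative. Their median was -0.41, beside 0.23 for all tested genes. Positive were 6 of 8 neutrophil genes (median 1.28), 5 of 6 monocyte genes (0.84) and 3 of 4 erythroid genes (1.14). So were 3 of 5 eosinophil and basophil genes (0.73) and 3 of 5 dividing cell genes (0.33). Of tested B cell genes 2 of 5 were positive (-0.21), and of tested T cell genes 1 of 2 (0.15). Single genes of these other lists, picked after their values were seen, separated the groups in both directions. Lyz2, a monocyte and granulocyte lysozyme gene, was at 179, 196 and 516 FPKM in old libraries and at 26.8, 97.1 and 99.1 FPKM in young libraries. Elane, the neutrophil elastase gene, was at 19.7, 19.2 and 220.1 FPKM in old libraries and at 10.2, 0.0475 and 0.0536 FPKM in young libraries. Both were higher in old libraries without overlap, as were 8.78% of all tested genes, and so were Ms4a1 of the B cell list and Ccnb1 of the dividing cell list. Prg2, an eosinophil granule gene, made up most of its list's sum, and which cells gave its level was not tested. It was lower in old libraries without overlap, at 861, 1120 and 1052 FPKM against 1210, 1353 and 1263 FPKM in young libraries. Pax5 of the B cell list was lower likewise, a pattern of 3.42% of all tested genes in that direction. Other members of the Prg2 list went the other way or were low, with the basophil gene Mcpt8 at 27.6, 9.55 and 265 FPKM in old and 12.02, 2.23 and 5.48 FPKM in young libraries, and Epx at most 0.412 FPKM in old and 9.95 FPKM in young libraries. limma called 0 of these markers. Their part in the family's values was not tested. In these bulk samples, fewer cells of a type and less RNA per cell cannot be told apart.

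Mcl1 stood far above the rest of the family. It was at 140, 170 and 208 FPKM in old libraries and at 280, 237 and 282 FPKM in young libraries, and it was the highest of the 10 members in 6 of 6 libraries. Among all genes of the table it ranked 240, 217 and 151 in old libraries and 100, 147 and 117 in young libraries. The runner-up differed from library to library. It was Bcl2 in old replicates 1 and 2 and in young replicate 2, Bid in old replicate 3, Bad in young replicate 1 and Bbc3 in young replicate 3. Mcl1 exceeded that runner-up 5.72, 8.43 and 6.96 times in old libraries and 6.75, 7.55 and 5.68 times in young libraries. Over Bcl2, part of this lead rests on the length correction. Merged exon lengths in the GENCODE M21 annotation are 3418 bases for Mcl1 and 9157 for Bcl2. Estimated reads per library, without that correction, were about 12863 to 23443 for Mcl1 and 3286 to 7258 for Bcl2.

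**Figure D1:**
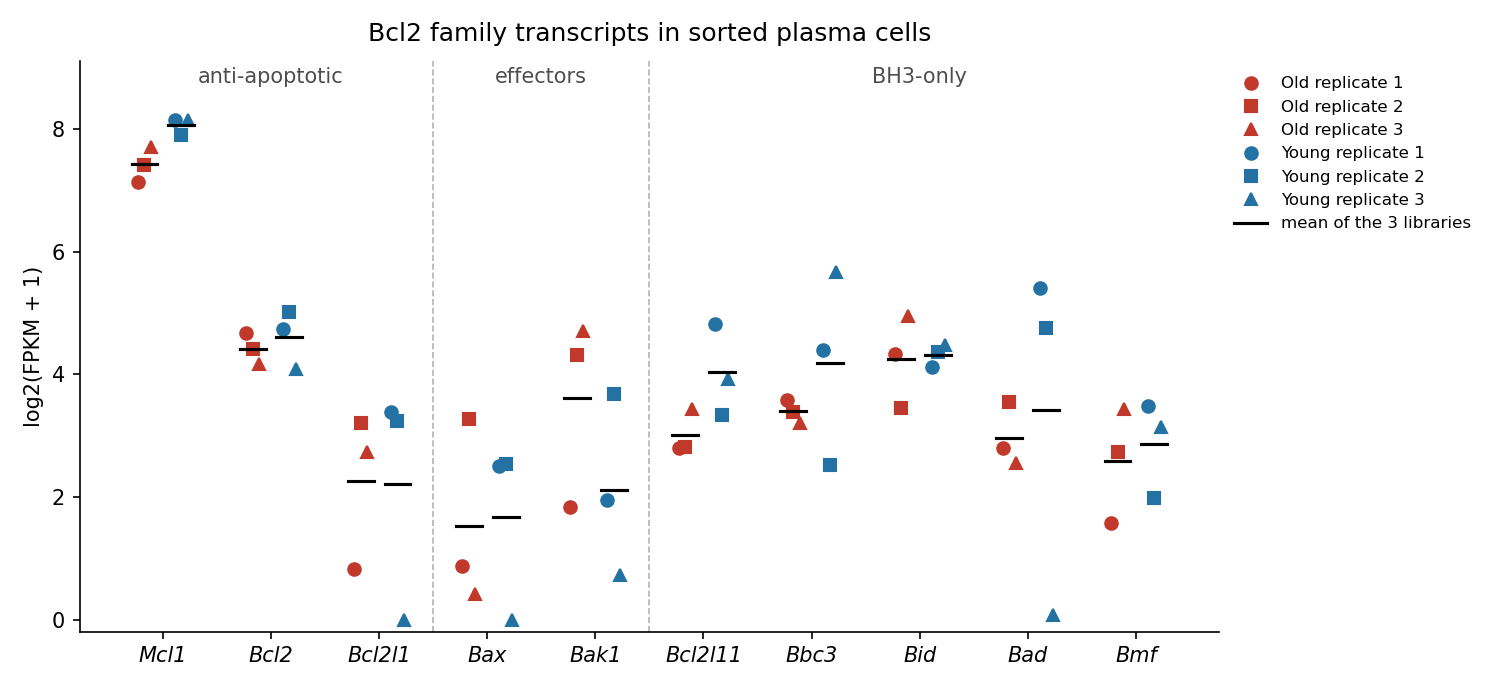
Level of each family member as log2(FPKM + 1) in the 3 old (red) and 3 young (blue) libraries, with a bar at each group mean and marker shape giving the replicate number. Mcl1 lies above the other 9 members in each library, and it is the 1 member whose groups do not overlap.

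Below Mcl1 the order of levels was loose. By mean over the 6 libraries it ran Mcl1 (219.6 FPKM), Bcl2 (22.5), Bid (19.4), Bbc3 (17.2), Bad (14.9), Bcl2l11 (12.1), Bak1 (10.3), Bmf (6.38), Bcl2l1 (5.42) and Bax (3.21). Mcl1 was above Bcl2 in 6 of 6 libraries, while each later member was above its next neighbour in 3 or 4 of 6. Neighbours below Mcl1 therefore did not separate beyond their spread. Steadier differences appeared between members further apart, and Bcl2 was above both Bcl2l1 and Bax in 6 of 6 libraries. The order also shifted between groups. By mean, Bak1 had rank 4 in old and rank 9 in young libraries, and Bbc3 had rank 5 in old and rank 2 in young libraries.

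Mcl1 was also among the steadiest transcripts. Its within-group SD of log2(FPKM + 1) was 0.22, and 2.27% of the 10687 genes tested had a smaller one. Those tested were the genes with a mean of at least 1 FPKM over the 6 libraries, which all 10 members passed. Bcl2 had a within-group SD of 0.38, Bid 0.55, Bcl2l11 0.59 and Bmf 0.87, all below the median of 0.94 for tested genes. Bbc3 had 1.13, Bax 1.49, Bak1 1.52 and Bcl2l1 1.62, and Bad, at 2.09, was wider than 96.4% of tested genes. Spread declines with level in this table. In genes of 100 to 1000 FPKM, where Mcl1 lies, the median within-group SD was 0.46.

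**Figure D2:**
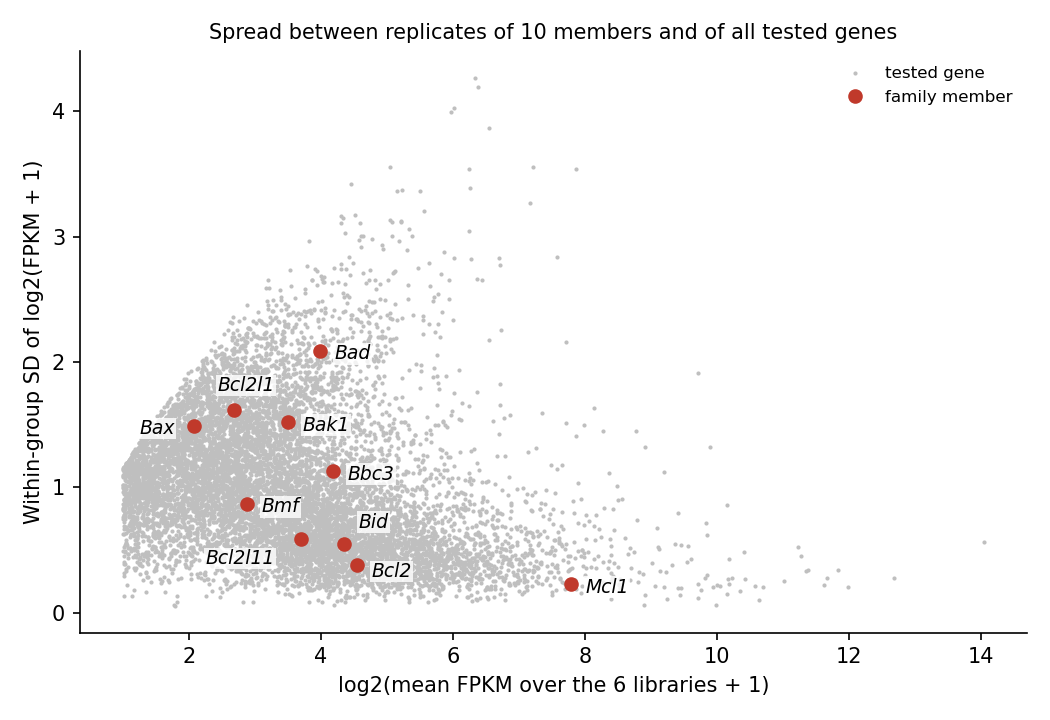
Within-group SD of log2(FPKM + 1) against the log2 mean FPKM over the 6 libraries plus 1, for the 10 members (red, named) and all 10687 tested genes (grey). Mcl1 sits low at 0.22 and Bad high at 2.09.

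Between age groups, limma called 0 of the 10 members at an adjusted p under 0.05, and 0 of all 10687 tested genes, a background of 0%. At an unadjusted p under 0.05 limma had 498 genes higher and 134 lower in old libraries, or 4.66% and 1.25% of those tested. Mcl1 was the 1 member among them. The log2 change, old minus young on the log2(FPKM + 1) scale, was negative for 8 of 10 members, against 38.7% of all tested genes. The median was -0.24 for the members and 0.23 for all tested genes. For tested genes it declined with level, being 0.58 at 1 to 5 FPKM, 0.25 at 5 to 20 FPKM and -0.05 at 100 to 1000 FPKM.

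Mcl1, which guards plasma cells against Bak1 and Bax, averaged 173 ± 34.2 FPKM in old and 266 ± 25.4 FPKM in young libraries (SD, n = 3 each), a change of -35.2% in the mean. The highest old library, at 208 FPKM, lay below the lowest young library, at 237 FPKM. Groups were separated in this direction for 3.42% of all tested genes. The log2 change was -0.64 ± 0.28 (SE; limma 95% interval -1.26 to -0.015), with a limma adjusted p = 0.839. A two-sided exact permutation test of Mcl1 alone gave p = 0.1, the smallest that 3 against 3 allows. Any gene whose groups do not overlap would get this value, so it adds nothing to the separation. Median-ratio scaling gave -0.74 and quantile normalization -0.59. The median of all tested genes moved too, to 0.15 and -0.01 under those scalings, and relative to it Mcl1 was at -0.86 as deposited, -0.88 and -0.58. For the 363 genes of 100 to 1000 FPKM, the level of Mcl1, the median as deposited was -0.05, against 0.23 for all tested genes. Among those 363 genes, 32 (8.82%) had a log2 change at or below that of Mcl1. In 18 (4.96%) the old libraries lay entirely below the young ones. Without old replicate 3, where plasma cell transcripts were lowest, the log2 change of Mcl1 was -0.78. It was -0.59 without young replicate 3 and -0.49 without old replicate 1, the weakest value on leaving out a single library. Old replicate 3 had the lowest Jchain, the highest Mcl1 and the largest summed monocyte genes of the old libraries. The part of cell content in its Mcl1 level was not tested. The Mcl1 values rest on about 12863 to 23443 reads per library, estimated from the step that 1 read makes in the low values. Counting error of that many reads is small beside the spread between libraries. Amplified reads are not independent molecules, though, and error from the sampling of molecules was not estimated.

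Bcl2, the founding anti-apoptotic member, was at 24.5, 20.2 and 17.0 FPKM in old libraries and at 25.7, 31.4 and 15.99 FPKM in young libraries. The groups overlapped, and the log2 change was -0.20 with a limma 95% interval of -1.24 to 0.83. Bcl2l1 was at 0.780, 8.20 and 5.64 FPKM in old libraries and at 9.45, 8.44 and 0 FPKM in young libraries. Each group thus held 1 library with little or no Bcl2l1, and the interval of its log2 change, -2.46 to 2.55, allows large differences either way. For young replicate 3 a level of 0 allows up to 0.0291 FPKM, the worth of 3 reads, for counting error only. Its sign turned under 7 of 15 alternatives.

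Among all 3 anti-apoptotic members, Mcl1 made up 84.7%, 85.7% and 90.2% of summed FPKM in old libraries and 88.9%, 85.6% and 94.6% in young libraries. The means were 86.9% ± 2.92 and 89.7% ± 4.57 (SD, n = 3 each), so the shares overlapped while the sum differed. That sum was 165, 198 and 231 FPKM in old libraries and 316, 277 and 298 FPKM in young libraries, without overlap, and most of it was Mcl1. Adding Bcl2l2, Bcl2a1b and Bcl2a1d lowered the Mcl1 share to 84.0% in old and 88.0% in young libraries.

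The effectors were low and uneven. Bax, which moves from the cytosol into the mitochondrial membrane, was at 0.841, 8.60 and 0.341 FPKM in old libraries and at 4.67, 4.81 and 0 FPKM in young libraries. The old range enclosed the levels of young replicates 1 and 2. Its level rested on about 15 to 379 reads where it was above 0, and for young replicate 3 the 3-read limit is 0.0848 FPKM. Bak1, the effector already seated in that membrane, was at 2.58, 18.9 and 25.1 FPKM in old libraries and at 2.87, 11.8 and 0.654 FPKM in young libraries. Both leading Bak1 values were from old libraries, while old replicate 1 lay below young replicate 1. Bak1 had the largest positive change of the 10 members, a log2 change of 1.502 ± 1.03 (SE; limma adjusted p = 0.852, interval -0.79 to 3.79). This value turned on single libraries, being 2.39 without old replicate 1, 2.28 without young replicate 2, 0.96 without old replicate 3 and 0.81 without young replicate 3.

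Of the BH3-only members, Bcl2l11 had the smallest p. Bcl2l11 encodes Bim, which binds every anti-apoptotic member. It was at 5.95, 6.01 and 9.81 FPKM in old libraries and at 27.3, 9.13 and 14.2 FPKM in young libraries. Old replicate 3 lay just above young replicate 2, and otherwise the old libraries were lower. The log2 change was -1.02 ± 0.63 (SE; limma adjusted p = 0.845, interval -2.42 to 0.39), and -0.62 without young replicate 1.

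Bbc3, which encodes the p53 target Puma, was at 11.01, 9.47 and 8.24 FPKM in old libraries and at 20.02, 4.71 and 49.6 FPKM in young libraries. The old values were close together and fell inside the wide young range. Its log2 change of -0.79 was -0.06 without young replicate 3 and -1.63 without young replicate 2. Bad, a BH3-only protein switched off by phosphorylation through growth factor signals, was at 5.97, 10.7 and 4.86 FPKM in old libraries and at 41.6, 26.1 and 0.0596 FPKM in young libraries. Only young replicate 3, at about 3 reads, kept the groups from separating. Its log2 change was -0.45 over all libraries and -2.12 without young replicate 3 (limma adjusted p = 0.559), but 0.55 without young replicate 1 and 0.22 without young replicate 2.

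Bid, which carries death receptor signals to mitochondria after cleavage by caspase-8, was at 19.0, 9.99 and 29.9 FPKM in old libraries and at 16.4, 19.6 and 21.2 FPKM in young libraries. The old range enclosed the young one, and the group means were 19.7 and 19.1 FPKM. Bmf, a BH3-only gene linked to cell detachment, was at 1.97, 5.67 and 9.76 FPKM in old libraries and at 10.2, 2.94 and 7.77 FPKM in young libraries. Its groups overlapped over most of their ranges. The limma intervals were -1.25 to 1.10 for Bid and -2.12 to 1.55 for Bmf.

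**Figure D3:**
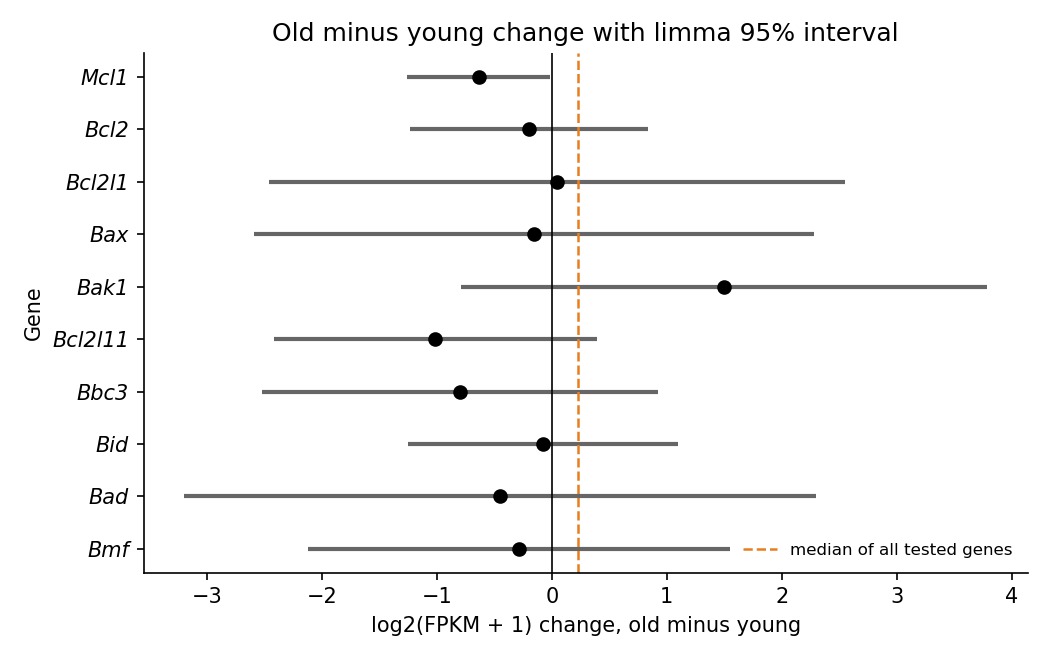
Change in log2(FPKM + 1), old minus young, for each member (point) with its limma 95% interval (line), and the median of all tested genes (dashed). The interval of Mcl1 ends at -0.015 below 0, those of the other 9 members span 0, and limma called 0 members after adjustment over all tested genes.

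Anti-apoptotic and pro-apoptotic transcripts were then set against each other within each library, and the ranges of their balance overlapped between groups. The 7 pro-apoptotic members summed to 47.4, 69.4 and 88.0 FPKM in old libraries and to 123, 79.1 and 93.4 FPKM in young libraries. Anti-apoptotic FPKM exceeded that sum 3.49, 2.86 and 2.62 times in old libraries and 2.57, 3.503 and 3.19 times in young libraries. The log2 ratio averaged 1.57 ± 0.21 in old and 1.61 ± 0.23 in young libraries (SD, n = 3 each), a difference of -0.04. Such ratios are not changed by a single scaling factor per library, though quantile normalization can change them. They are sums of transcripts and say nothing of how much protein is bound.

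Single ratios spread more. Mcl1 over Bcl2l11 was 23.5, 28.3 and 21.2 in old libraries and 10.3, 26.0 and 19.9 in young libraries. Mcl1 over the summed BH3-only members was 3.19, 4.06 and 3.33 in old libraries and 2.43, 3.79 and 3.04 in young libraries. Neither this sum nor the pro-apoptotic sum holds Pmaip1, a BH3-only gene outside the member list. Its level was 8.36 to 29.1 FPKM in old and 13.8 to 19.4 FPKM in young libraries, so including it would lower these ratios. For Mcl1 over Bbc3 the old libraries had 12.7, 18.0 and 25.3 and the young libraries 14.0, 50.4 and 5.68, and for Mcl1 over Bcl2 the old libraries had 5.72, 8.43 and 12.3 and the young libraries 10.9, 7.55 and 17.6. All of these ratios overlapped between groups.

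**Figure D4:**
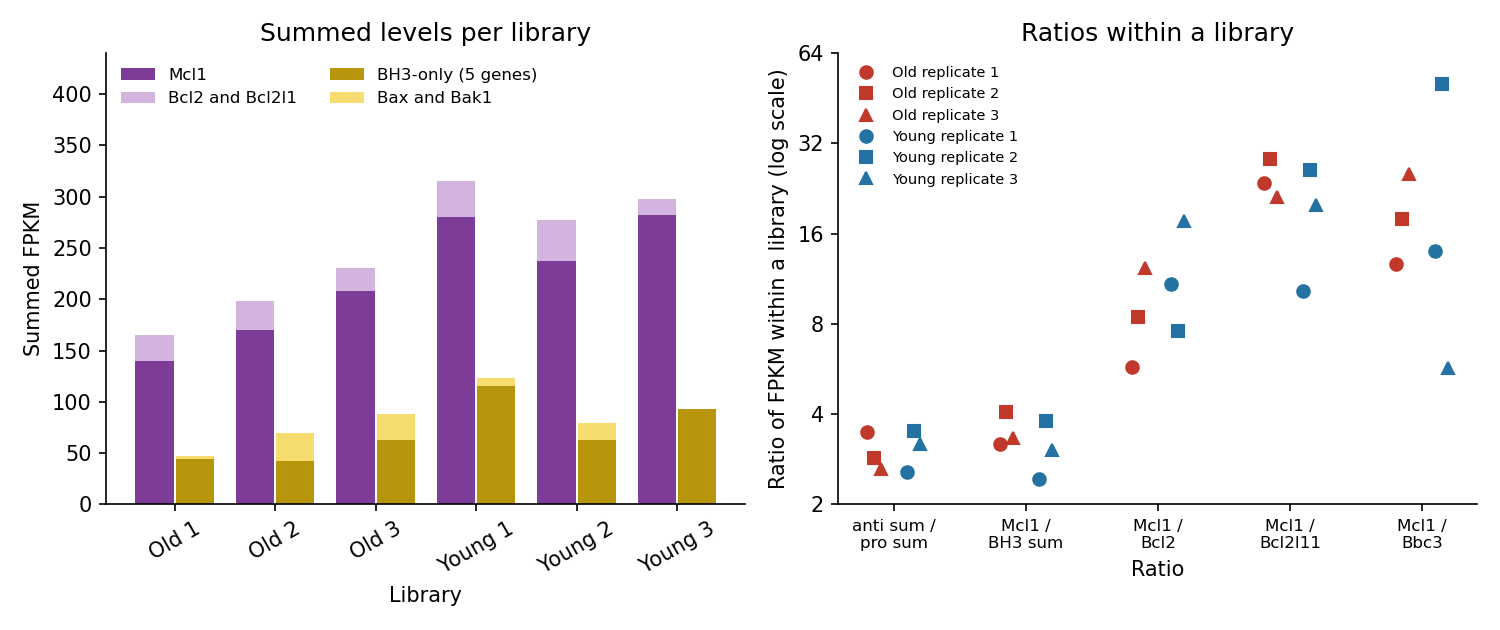
Left, summed FPKM per library of the anti-apoptotic members (purple, Mcl1 dark) and of the pro-apoptotic members (yellow, BH3-only dark), bars from 0. Right, ratios of FPKM within each library on a log axis, old red and young blue; the anti-apoptotic sum is lower in old libraries (165 to 231 against 277 to 316 FPKM) and the ratio of both sums overlaps (2.62 to 3.49 against 2.57 to 3.503).

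Further relatives of the family were mostly low. Of 15 listed, 10 were in the table and 7 were tested, of which 4 had a positive and 3 a negative log2 change, with a median of 0.05 and 0 called by limma. Bnip3l, a mitophagy receptor, was the highest, at 66.7, 37.0 and 57.2 FPKM in old libraries and 46.8, 32.9 and 45.2 FPKM in young libraries. Pmaip1, which encodes Noxa, a BH3-only partner with a preference for Mcl1, was at 29.1, 14.1 and 8.36 FPKM in old libraries and 16.3, 19.4 and 13.8 FPKM in young libraries. Both genes overlapped between groups. Bcl2l2, which encodes the anti-apoptotic Bcl-w, was at 11.1, 1.35 and 6.545 FPKM in old libraries and 2.64, 7.52 and 5.23 FPKM in young libraries. Bcl2l13 ranged from 5.59 to 9.55 and from 6.29 to 11.7 FPKM, and Bcl2l15 from 5.19 to 11.1 and from 0.0226 to 14.7 FPKM, in old and young libraries. The remaining relatives were patchy. Bcl2l12 was at 14.0 FPKM in old replicate 2 and 17.1 FPKM in young replicate 2 and at most 0.0726 FPKM elsewhere, and Bnip3 was at 30.6 FPKM in old replicate 3 and at most 0.241 FPKM elsewhere. Bcl2a1b and Bcl2a1d, near-identical copies of the anti-apoptotic gene A1 whose reads cannot be assigned with confidence, were at most 0.680 FPKM. Bik was at 0.395, 1.47 and 3.14 FPKM in old libraries and listed at 0 in young libraries, and lay under the level set for testing.

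Genes that govern Mcl1 protein or lie downstream of the family were counted as well, and limma called 0 of them. In the Mcl1 turnover list 6 of 7 tested genes were positive in log2 change and the list median was 0.28, beside 0.23 for all tested genes. Fbxo4 was at 51.6, 52.3 and 21.5 FPKM in old libraries and 22.95, 50.8 and 0.0228 FPKM in young libraries. Usp9x, the X-linked deubiquitinase that stabilises Mcl1, was at 35.55, 24.2 and 28.7 FPKM in old libraries and 25.2, 24.0 and 22.4 FPKM in young libraries. Skp1a ranged from 43.6 to 79.15 and from 17.15 to 69.8 FPKM. Trim17 was at 0, 0.925 and 8.41 FPKM in old libraries and listed at 0 in young libraries.

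In the mitochondrial death pathway 6 of 14 tested genes were positive and 8 negative in log2 change, and the list median was -0.09. Htra2, a protease released from mitochondria, was at 9.60, 11.04 and 6.27 FPKM in old libraries and 17.2, 23.5 and 13.1 FPKM in young libraries. It was the 1 gene of the list whose groups did not overlap, against a background of 3.42% in that direction (limma adjusted p = 0.843). Xiap, the caspase inhibitor, was at 3.22, 5.01 and 10.9 FPKM in old libraries and 13.4, 15.95 and 6.42 FPKM in young libraries. Diablo, which frees caspases from their inhibitors, was at 0.0992, 1.30 and 6.58 FPKM in old libraries. In young libraries it was at 0, 0.274 and 0.00792 FPKM, and the groups overlapped.

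Transcription factors that act on family genes divided 6 and 6, with a median of 0.02. Foxo1, known to raise Bcl2l11 transcription, was at 20.6, 14.4 and 9.44 FPKM in old libraries and 3.08, 4.36 and 2.74 FPKM in young libraries. All old values of Foxo1 lay above all young values, a pattern of 8.78% of tested genes in that direction (log2 change 1.80 ± 0.68 SE, limma adjusted p = 0.793). Relb was at 14.55, 10.8 and 10.2 FPKM in old libraries and 14.5, 29.2 and 25.9 FPKM in young libraries. Stat3 ranged from 12.6 to 18.5 and from 9.25 to 16.2 FPKM, and Trp73 from 0.271 to 3.82 and from 0 to 12.2 FPKM. Of the 6 death receptor genes, 4 were positive in log2 change and the list median was 0.41. Tnfrsf1a, a TNF receptor gene, was at 3.71, 3.77 and 14.8 FPKM in old libraries and listed at 0 in young libraries (limma adjusted p = 0.736). It was highest in old replicate 3, which also had the largest summed monocyte genes, and the part of other cells in this value was not tested. Tnfrsf10b was at 0, 4.71 and 4.05 FPKM in old libraries and at 0, 2.165 and 0 FPKM in young libraries. Casp8 ranged from 42.9 to 56.2 and from 20.3 to 92.1 FPKM, and Cflar, its inhibitor, from 17.4 to 23.0 and from 13.1 to 18.9 FPKM.

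The genes whose profile lay closest to that of Mcl1 over the 6 libraries were sought among 2834 other genes with a mean of at least 20 FPKM, by the root mean square difference of centred log2(FPKM + 1). Rack1, a ribosome scaffold gene, differed from Mcl1 by 0.12, Mndal by 0.12 and Paip2, a translation regulator, by 0.12, against a median of 0.64. Rack1 was at 89.3, 105.5 and 136 FPKM in old libraries and 160, 123 and 158 FPKM in young libraries. Mndal was at 60.1, 83.7 and 80.8 FPKM in old libraries and 113.5, 113 and 116.5 FPKM in young libraries. Paip2 was at 31.3, 39.3 and 51.3 FPKM in old libraries and 71.6, 46.2 and 68.9 FPKM in young libraries.

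By the GENCODE M21 annotation of GRCm38, Mcl1 lies on chromosome 3 (95658788 to 95663176, plus strand) and overlaps no other gene. The same holds for Bcl2l11 on chromosome 2 (128126038 to 128162547, plus), Bmf on chromosome 2 (118528757 to 118549687, minus), Bcl2l1 on chromosome 2 (152780668 to 152831728, minus) and Bbc3 on chromosome 7 (16308393 to 16318205, plus). The other 5 share exon bases with a neighbour, and whether counting used strand is not given in the sources used here. Bak1 (chromosome 17, 27019810 to 27029009, minus) shares 614 exon bases with Ggnbp1 on the opposite strand, and Bad (chromosome 19, 6941861 to 6951899, plus) shares 524 with Gpr137 on the opposite strand. Bid (chromosome 6, 120891930 to 120916853, minus) shares 628 with Bcl2l13, Bcl2 (chromosome 1, 106538178 to 106714274, minus) shares 558 with D630008O14Rik, and Bax (chromosome 7, 45461697 to 45466898, minus) shares 192 with Gm45808. Ggnbp1, chosen afterwards with its values known, had 3.85, 7.67 and 5.29 FPKM in old libraries and 0.327, 0.0947 and 24.7 FPKM in young libraries. Gpr137, likewise chosen afterwards, was at 5.91, 5.79 and 4.35 FPKM in old libraries and 6.81, 36.6 and 28.6 FPKM in young libraries. Whether reads from the shared exon bases entered the values of Bak1 or Bad was not tested. Values are per gene, so the long and short splice forms of Mcl1, Bcl2l1 and Bcl2l11, which can have opposite functions for Mcl1 and Bcl2l1, are not separated.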

How the data were processed

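RNA was sequenced from 6 sorted libraries, 3 old and 3 young, prepared with a stranded kit for total RNA at an input of 5 ng, per the labels' protocols. The authors deposited FPKM values. The submitters' processing notes list bcl2fastq 2.17, DESeq2 and STAR, with no role for any, and mm10 and GRCm38 as builds. Counter, gene lengths and annotation release are not given in the sources used here. Depth is unknown from FPKM, but with merged exon lengths from GENCODE M21 (99.9% of identifiers matched) the lowest values step by 0.0358 to 0.0446 FPKM per read and kilobase, or about 22.4 to 27.9 M reads per library. By this estimate old libraries had 26.9 to 27.9 M reads and young libraries 22.4 to 25.2 M reads. Amplified reads are not independent molecules, and read limits cover counting error only.

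limma 3.58.1 in R 4.3.3 was run on log2(FPKM + 1), with the trend option of its variance model, over genes of mean at least 1 FPKM, two-sided, with Benjamini-Hochberg adjustment over all 10687 genes and calls under 0.05. A fold change on this scale understates low genes. The fit was run on simulated data with planted changes far larger than those of the members. That run cannot show whether changes of the members' size would be called. Sums, shares, ratios and orders are descriptions with no test. Tables and figures used scipy 1.17.1, pandas 2.3.3, matplotlib 3.10.9 and numpy 2.4.6 under Python 3.11.15. Members, gene lists and tests were chosen with earlier results of these data known. Text names all members, all measured further relatives, the 4 genes of smallest p in each other list, and the 3 genes nearest to Mcl1; others are named as chosen afterwards. A gene that this rule names in the mitochondrial death pathway is not reported here. Huwe1, Fbxw7, Cul1 and similar list genes enter counts alone.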

Additional observations from a re-analysis of the deposited data

How the results depend on the processing

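Over 15 alternatives, limma called 0 members in each, Mcl1, Bcl2l11 and Bbc3 stayed lower and Bak1 higher in old libraries. The change of Mcl1 ranged from -0.78 to -0.49 without single libraries and from -0.74 to -0.59 otherwise, with limma adjusted p from 0.602 to 0.979. Its unadjusted limma p ranged from 0.0229 to 0.226. Where signs reversed, the smallest unadjusted limma p was 0.265, for Bcl2l1 without young replicate 3. Reversed values were 0.21 and 0.30 for Bax and Bad at a pseudocount of 0.1, -0.086 for Bcl2l1 at a pseudocount of 5, -0.011 with median-ratio scaling and -0.36 with quantile normalization, and -0.16 for Bcl2l1 and 0.046 for Bax with array weights. Without single libraries log2 changes ranged from -0.47 to 0.00035 for Bcl2, -1.06 to 0.76 for Bcl2l1, -1.03 to 0.39 for Bax, -0.43 to 0.32 for Bid, -2.12 to 0.55 for Bad and -0.73 to 0.22 for Bmf. Bax was not tested at a mean of at least 5 FPKM. Among all genes limma called 1 higher under quantile normalization and 1 with array weights; without single libraries it called 0 to 6 higher and 0 to 1 lower, most without young replicate 3. Mcl1 over the next member was 9.78 by means over all libraries, 8.41 in old libraries alone and 6.85 as the median of ratios within libraries. The difference in the log2 ratio of anti-apoptotic to pro-apoptotic sums was 0.39 when Mcl1 was left out, and -0.17 to 0.054 without single libraries. With replicate number as a block, limma gave Mcl1 an unadjusted p = 0.0528 and an adjusted p = 0.898, and called 0 genes. Same-numbered libraries did not deviate together (correlations across genes of -0.034, 0.020 and -0.0041), so the numbers were not taken as pairs. In their lowest libraries above 0, Bad, Bax and Bak1 rested on about 3, 15 and 35 reads, although Bad reached about 2600 reads in young replicate 1.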
